A study of Rattus norvegicus with 30 samples.

Results

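miR-21-5p is the mature microRNA cut from the 5′ arm of the rat Mir21 hairpin. It was followed here in urinary exosomes after bilateral renal ischemia-reperfusion injury (IRI). It was chosen by name, as rno-miR-21-5p, and is 1 of the 122 miRNAs listed on at least 1 day. It was listed on all 5 days and was above 0 in all 30 libraries. The IRI group consisted of male Sprague Dawley rats 1, 2 and 13, whose left and right renal pedicles were clamped and then reperfused. The sham group consisted of male Sprague Dawley rats 3, 6 and 9, which had the same surgery without the clamps. Urine was collected from the same 6 rats at days 1, 2, 3, 7 and 14 after the surgery, and small RNA was extracted with a urine exosome kit, and each group on each day had n = 3 rats. The values are read counts that the authors scaled in a separate table for each day, by a method not named in the sources used here. The listed miRNAs of a library summed to between 742597 and 1906282, the highest being IRI rat 13 at day 3, and a level is therefore compared between groups within a day and between days only as a share of its own library.

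miRNAs are short RNAs that guide Argonaute proteins to matching sites, mostly in the 3′ ends of mRNAs, and lower the output of those mRNAs. Pairing rests mainly on the seed, the bases near the 5′ end. miR-21 is abundant in many epithelia and is known in rodent kidney as a miRNA that rises with injury and fibrosis. Its known targets include Pdcd4, which restrains translation. Urinary exosomes are vesicles shed largely by cells lining the nephron and the urinary tract, so exosomal miRNAs (exo-miRs) are read from urine and not from the kidney itself. In such a bulk sample, fewer vesicles of a type and less RNA per vesicle cannot be told apart.

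The mature sequence is shown because miR-21-5p is compared below with miRNAs of high sequence similarity to each other. It lies at chr10:71902653-71902674 on the minus strand of GRCr8, within the Mir21 hairpin at chr10:71902600-71902691, and Mir21 is the one gene that RefSeq annotates within those bounds. The seed (bases 2 to 8) is in capitals in the first sequence, and the 5p arm (bases 18 to 39) is in capitals in the hairpin. Sequences were taken from RefSeq (GRCr8).
rno-miR-21-5p: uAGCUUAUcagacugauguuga
Mir21 hairpin: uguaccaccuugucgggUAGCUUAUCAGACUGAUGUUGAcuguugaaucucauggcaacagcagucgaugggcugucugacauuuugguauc

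The opposite arm of the hairpin, miR-21-3p (bases 56 to 77), was not listed on any day. No other of the 693 rat mature miRNAs in the table had the seed AGCUUAU, and miR-21-5p differed from every one of them by at least 7 edits (single-base substitutions, insertions or deletions). Among the 109 listed miRNAs with a sequence, the smallest distance was 9 edits. Its GC content was 36.4%, against a median of 45.5% over these 109 miRNAs, of which 18 were at or below its value, miR-21-5p included. The motif GGAG, known as a sorting motif for exosomes in T cells, was searched on the mature strand of each miRNA and was present in 10.1% of the listed miRNAs with a sequence and in 8.08% of all rat mature miRNAs. These letters do not occur in miR-21-5p. The paper's own search in urinary exo-miRs gave GGRS (GG, then A or G, then C or G), which overlaps GGAG. miR-21-5p has no GG and so does not hold that motif.

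miR-21-5p was the most abundant exo-miR outside the let-7 family by group mean in IRI rats on every day. Its lead was narrow at day 14, at 48985 against 48106 for miR-378a-3p. At day 1 it had 53400 against 48053 for miR-16-5p. The mean level of miR-21-5p was higher in IRI rats than in sham rats on every day. The ratio of the means ran between 1.84 at day 2 and 4.68 at day 3. No single day passed the test across all listed miRNAs, nor did the mean of the 5 days.

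At day 1, miR-21-5p had scaled counts of 36543, 35901 and 87757 in IRI rats 1, 2 and 13, against 14587, 17288 and 36522 in sham rats 3, 6 and 9. IRI rat 13 stood above the rest, and sham rat 9 reached the level of the other IRI rats, so the groups overlapped. At day 2 the scaled counts were 46037, 54271 and 78447 in IRI rats, against 14387, 23330 and 59686 in sham rats. Sham rat 9 lay above IRI rats 1 and 2 on that day, and the groups overlapped again.

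At day 3 miR-21-5p had scaled counts of 53106, 49036 and 167748 in IRI rats, against 11317, 20278 and 26114 in sham rats. All 3 IRI rats lay above all 3 sham rats, and IRI rat 13, whose library also had the highest summed value, stood apart. At day 7 the scaled counts were 36553, 43685 and 59955 in IRI rats, against 11977, 26377 and 16005 in sham rats. At day 14 they were 50437, 55083 and 41436 in IRI rats, against 9083, 24076 and 35228 in sham rats. The groups did not overlap at days 3, 7 and 14. Among all listed miRNAs, the share with no overlap and a higher level in IRI was 6.94% at day 3, 10.3% at day 7 and 11.4% at day 14, so miR-21-5p was 1 of several on each of those days.

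**Figure D1:**
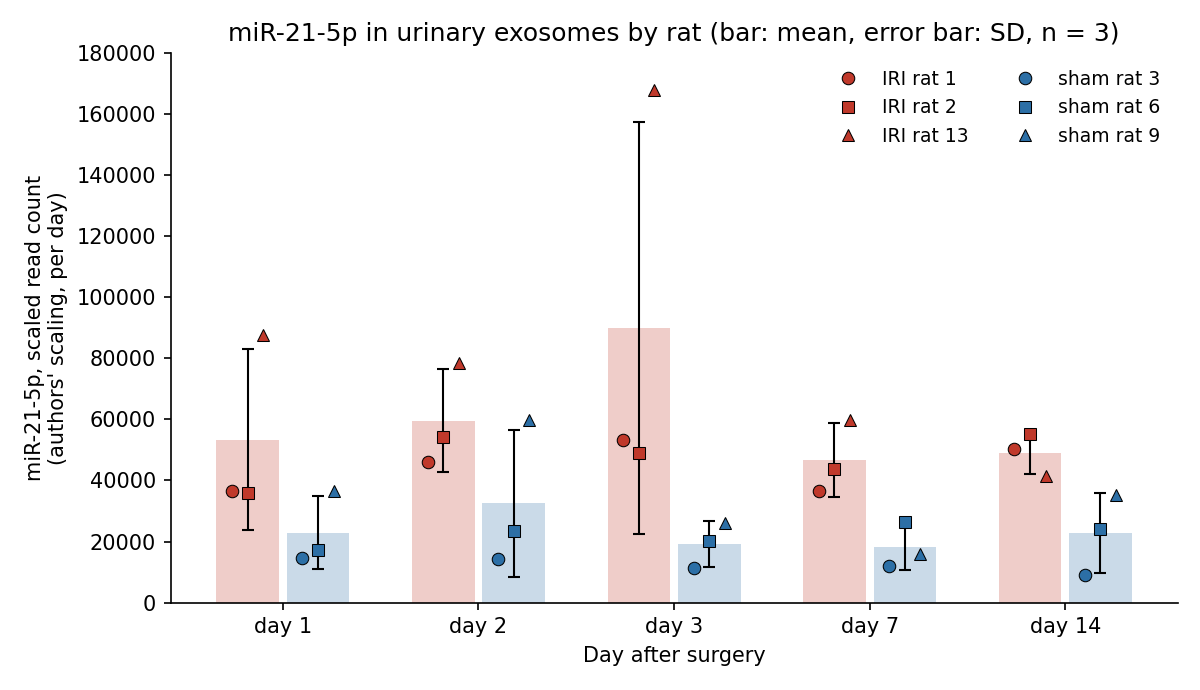
Scaled read count of miR-21-5p (y axis, scaled by the authors within each day) at each day after the surgery (x axis), with 1 symbol per rat, IRI left of sham, bars at the mean and error bars of 1 SD (n = 3). IRI means sit above sham means on each day, and IRI rat 13 stands apart from the other rats of day 3 at 167748.

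The mean level at day 1 was 53400 ± 29755 in IRI and 22799 ± 11961 in sham rats (SD, n = 3 each). At day 2 it was 59585 ± 16846 in IRI and 32468 ± 23992 in sham rats. At day 3 it was 89963 ± 67394 in IRI and 19236 ± 7453 in sham rats. These SDs were wide where 1 rat stood apart: without IRI rat 13 the ratio of the means at day 3 was 2.65 in place of 4.68, and without sham rat 9 the ratio at day 2 was 3.16 in place of 1.84. At day 7 the mean was 46731 ± 11995 in IRI and 18120 ± 7429 in sham rats. The day 14 mean was 48985 ± 6938 in IRI and 22796 ± 13119 in sham rats. Pairing each IRI rat with each sham rat, the IRI rat was higher in 8 of 9 pairs at day 1, in 7 of 9 at day 2, and in 9 of 9 at days 3, 7 and 14.

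The share of miR-21-5p among the reads of listed miRNAs does not depend on the scaling between libraries. Each library's values were whole multiples of 1 step (within 0.0218 of a step), which was taken as the worth of 1 read. On this count miR-21-5p had 18 to 3864 reads in IRI libraries and 3 to 87 reads in sham libraries. At day 1 the listed miRNAs summed to 11165 to 50722 reads in IRI libraries and to 935 to 2125 in sham libraries. At day 2 the sums were 1122 to 10542 reads in IRI and 696 to 1955 in sham libraries, and at day 3 they were 691 to 12739 in IRI and 289 to 909 in sham libraries. Depth thus moved with the group at day 1 and reached higher in IRI at days 2 and 3, with some overlap at both. At day 7 the sums were 431 to 837 reads in IRI and 211 to 981 in sham libraries, and at day 14 they were 651 to 1157 in IRI and 666 to 1796 in sham libraries. The part of depth in the differences was not tested. Fewer than 15 reads of miR-21-5p were found in 0 of 15 IRI libraries and in 6 of 15 sham libraries. The thinnest value was that of sham rat 3 at day 7, with 3 of 211 reads, a share of 1.42% (exact 95% interval, 0.294% to 4.10%). Such intervals cover counting error only.

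In IRI rats, miR-21-5p took 4.76% ± 2.62 of the reads at day 1, against 2.62% ± 1.35 in sham rats (SD, n = 3 each). The share was 6.46% ± 1.27 in IRI and 2.85% ± 1.46 in sham rats at day 2. At day 3 it was 7.04% ± 1.53 in IRI and 2.21% ± 0.897 in sham rats. The day 3 share was the highest of the IRI group means, while the sham means stayed between 1.75% and 2.85%. At day 7 the share was 4.98% ± 1.06 in IRI and 1.75% ± 0.363 in sham rats. By day 14 it was 4.98% ± 1.19 in IRI and 2.35% ± 1.31 in sham rats.

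The shares did not overlap between groups at days 2, 3, 7 and 14, as was so, with IRI higher, for 8.14%, 8.33%, 10.3% and 11.4% of the listed miRNAs on those days. On each of the 4 days the two-sided exact permutation test gave p = 0.1, the smallest that 3 against 3 can give. At day 1 the shares overlapped (exact permutation p = 0.2). Without IRI rat 13 the day 1 difference was 0.713 percentage points in place of 2.141. Of the 15 IRI libraries, 11 lay above the highest sham share of 4.45%. Of the 15 sham libraries, 10 lay below the lowest IRI share of 2.47%.

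Averaged over the 5 days, the share was 4.44%, 5.80% and 6.69% in IRI rats 1, 2 and 13, against 1.40%, 2.26% and 3.41% in sham rats 3, 6 and 9. The 3 IRI means lay above the 3 sham means, as for 10.7% of the 56 miRNAs listed on all days, with a difference of 3.29 percentage points between group means of 5.64% ± 1.13 and 2.36% ± 1.01 (exact permutation p = 0.1, the smallest possible). Sham rat 3 had the lowest sham share on 5 of 5 days and sham rat 9 the highest on 4 of 5. IRI rats changed places more, with rat 13 highest on 3 days and lowest on 1, rat 2 highest on 2 and lowest on 1, and rat 1 lowest on 3. Put in order, the mean shares ran IRI day 3, day 2, day 7, day 14 and day 1, then sham day 2, day 1, day 14, day 3 and day 7. All 9 neighbouring pairs in that order overlapped between rats, including IRI day 1 and sham day 2.

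**Figure D2:**
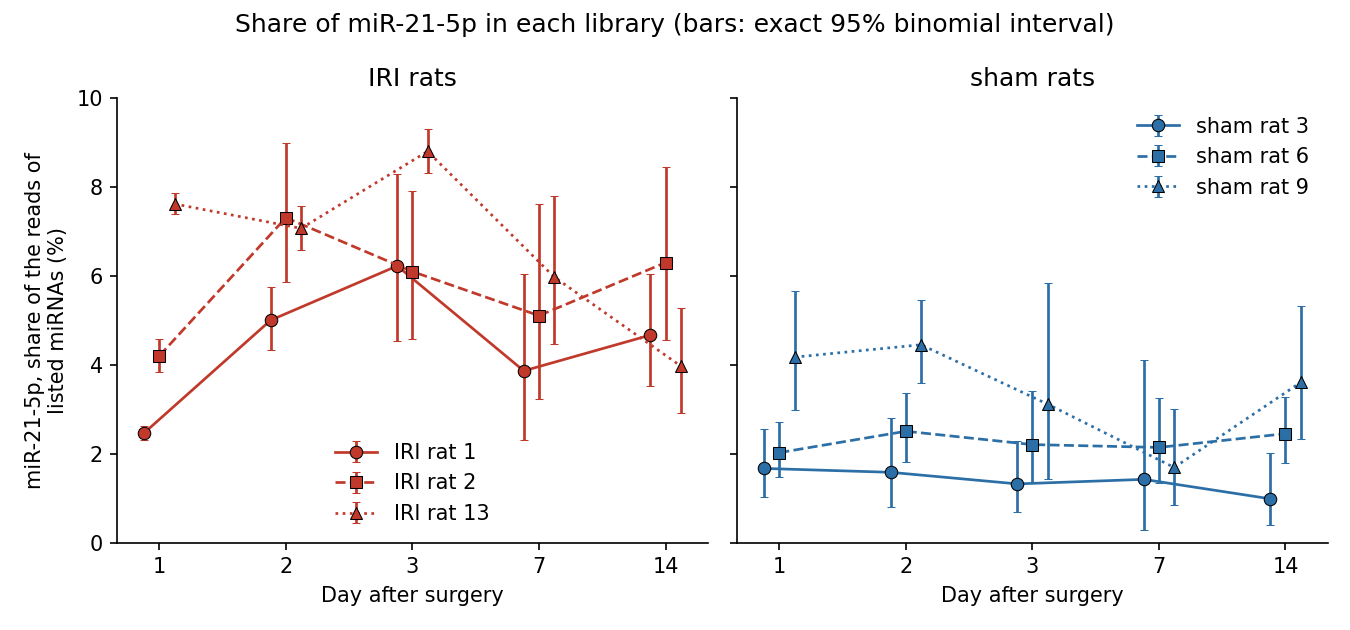
Share of miR-21-5p among the reads of listed miRNAs (y axis, percent) in each rat over days 1, 2, 3, 7 and 14 (x axis, days evenly spaced), with IRI rats in the left panel and sham rats in the right panel, and exact 95% binomial intervals as error bars. IRI shares run between 2.47% and 8.80% and sham shares between 0.985% and 4.45%, with wide intervals in the shallow sham libraries.

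The spread between rats can be set beside what counting alone would give. At day 3 the coefficient of variation of the scaled count was 74.9% in IRI rats, where counting alone gave 12.02%, and 38.7% in sham rats, where counting gave 28.7%. At day 14 it was 14.2% in IRI rats, against 14.7% from counting, while sham rats varied by 57.6%, against 26.3% from counting. The sham rats of day 7 varied by 41.0%, against 39.7% from counting.

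miR-21-5p ranked 4 to 8 (median 5) among the listed miRNAs in IRI libraries and 5 to 20 (median 9) in sham libraries. It was at rank 6 or better in 13 of 15 IRI libraries, against 3 of 15 sham libraries. By group mean its rank over days 1, 2, 3, 7 and 14 was 5, 4, 4, 5 and 5 in IRI rats, against 7, 6, 8, 10 and 6 in sham rats, among 110, 86, 72, 68 and 79 listed miRNAs.

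In single libraries more miRNAs could stand above miR-21-5p, with 7 in IRI rat 1 and 6 in IRI rat 2 at day 1. By group mean, the exo-miRs above it in IRI rats were all members of the let-7 family. These are known for restraining growth genes and are abundant in differentiated epithelia. By this mean, let-7f-5p, let-7c-5p and let-7a-5p were above miR-21-5p on each day in IRI rats, and let-7b-5p at days 1, 7 and 14. Averaged over the 5 days they differed between IRI and sham by -0.27 to 0.07 on the log2 scale, and none passed (limma adjusted p of 0.716 to 0.951). These 4 share the seed GAGGUAG and lie 1 to 3 edits from each other, so that reads with an error could be split between them, which does not touch miR-21-5p at its distance of 9 edits from any listed sequence. Their mature sequences, with the seed in capitals, are given to show this likeness. RefSeq places let-7b-5p at chr7:118684044-118684065 on the plus strand of GRCr8, while the others each have 2 loci.
rno-let-7f-5p: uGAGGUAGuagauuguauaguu
rno-let-7c-5p: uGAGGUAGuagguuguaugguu
rno-let-7a-5p: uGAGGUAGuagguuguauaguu
rno-let-7b-5p: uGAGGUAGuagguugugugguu

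By group mean in sham rats, let-7a-5p, let-7b-5p, let-7c-5p and let-7f-5p stood above miR-21-5p on each day. So did miR-378a-3p, a miRNA encoded within the metabolic coactivator gene Ppargc1b. miR-26a-5p stood above it in sham rats at days 1, 3 and 7, and miR-30a-5p, a nephron epithelial miRNA, at days 3 and 7. At day 7 miR-10a-5p and miR-30d-5p were above it too, with means of 23522 and 18393 beside 18120 for miR-21-5p. At day 1 let-7f-5p averaged 226143 ± 54960 in IRI rats, which was 4.23 times miR-21-5p, and 172672 ± 28508 in sham rats, which was 7.57 times miR-21-5p. At day 3 the first by mean was let-7c-5p in IRI rats, at 2.63 times miR-21-5p, and let-7f-5p in sham rats, at 9.06 times. miR-378a-3p averaged lower in IRI rats over the 5 days, by -1.56 on the log2 scale, and was 1 of the 2 miRNAs past the threshold in that comparison (limma adjusted p = 0.0370).

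The 4 let-7 members together took 41.1% to 58.0% of the reads in IRI libraries and 47.8% to 64.7% in sham libraries. Set against their sum, a measure chosen after the values were seen, miR-21-5p had 10.1 ± 6.29 reads per 100 let-7 reads in IRI rats at day 1, against 5.09 ± 3.15 in sham rats (SD, n = 3 each, exact permutation p = 0.2). At day 2 it had 15.1 ± 4.08 in IRI and 5.02 ± 2.23 in sham rats. At day 3 it had 14.6 ± 1.43 in IRI and 4.32 ± 1.77 in sham rats. The 3 IRI rats, so far apart in scaled count at day 3, lay between 13.33 and 16.18 on this ratio. At day 7 the ratio was 10.3 ± 2.45 in IRI and 3.17 ± 0.726 in sham rats, and at day 14 it was 9.298 ± 3.13 in IRI and 4.22 ± 2.24 in sham rats. From day 2 on the groups did not overlap, as was so, with IRI higher, for 11.0%, 8.82%, 14.1% and 9.33% of the listed miRNAs outside these 4 at days 2, 3, 7 and 14, with an exact permutation p = 0.1 on each day, the smallest possible.

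Whether the IRI and sham groups differed was tested with limma on log2(value + 500) over all listed miRNAs of a day, with Benjamini-Hochberg adjustment and a threshold of 0.05. At day 1 the difference of miR-21-5p was 1.19 (SE 0.53, 95% interval -0.09 to 2.48, adjusted p = 0.370). At day 2 it was 1.08 (SE 0.69, 95% interval -0.47 to 2.63, adjusted p = 0.639). At day 3 it was 2.03 (SE 0.78, 95% interval 0.29 to 3.78, unadjusted p = 0.0270 and adjusted p = 0.647), the 1 day on which the unadjusted interval lay wholly above 0, and 6.94% of the miRNAs had an unadjusted p under 0.05 on that day. At day 7 it was 1.39 (SE 0.61, 95% interval -0.04 to 2.81, adjusted p = 0.748). At day 14 it was 1.27 (SE 0.59, 95% interval -0.11 to 2.66, adjusted p = 0.439). Few miRNAs passed at all: the share called was 0.909% at day 1, 1.16% at day 2, 1.39% at day 3, 2.94% at day 7 and 0.0% at day 14. At day 14, 11.4% of the miRNAs had an unadjusted p under 0.05.

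The differences of miR-21-5p stood well above those of the typical miRNA. The median difference over all listed miRNAs was 0.30, 0.11, 0.13, -0.05 and -0.09 over days 1, 2, 3, 7 and 14. Ordered by size of increase, miR-21-5p was the 12th of 110 miRNAs at day 1, the 11th of 86 at day 2, the 4th of 72 at day 3, the 7th of 68 at day 7 and the 10th of 79 at day 14. With every library scaled to the same total, its difference was 0.82, 1.27, 1.71, 1.48 and 1.22, and with libraries recentred on their median it was 0.96, 1.03, 2.45, 1.52 and 1.32 over the same days.

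**Figure D3:**
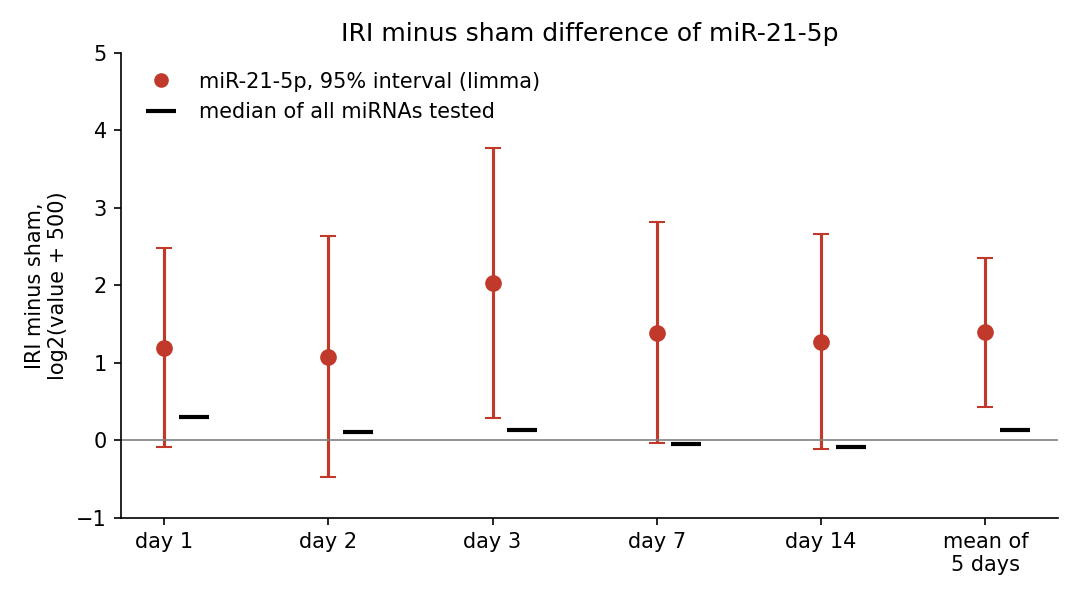
IRI minus sham difference of miR-21-5p on the log2(value + 500) scale (y axis) for each day and the mean of 5 days (x axis), as points with 95% intervals from limma, and the median of all miRNAs tested as a dash. The points lie between 1.08 and 2.03, above the medians, and the intervals of day 3 and of the mean of 5 days lie above 0.

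With the 5 days of each rat averaged, over the 56 miRNAs listed on all days, miR-21-5p was 1.39 higher in IRI rats (SE 0.42, 95% interval 0.43 to 2.36). Its unadjusted p was 0.00996 and its adjusted p was 0.139 (limma), which did not pass, and 3.57% of the 56 miRNAs did, while 16.1% had an unadjusted p under 0.05. By p it was the 4th of the 56, and by size of increase the 2nd, where the median miRNA differed by 0.13. An adjusted p below 0.05 was reached when miRNAs with a 0 in any library were left out (0.00435) and when the prior variance followed the mean level (0.0410).

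A higher IRI mean of log2(value + 500) on all 5 days was shared by 8.93% of the 56 miRNAs, namely miR-21-5p, let-7d-5p, miR-16-5p, miR-221-3p and miR-30e-5p. For miR-30e-5p the mean scaled count at day 7 was 4691 in IRI and 4738 in sham rats, so on that scale it was not higher on every day. Of these 5, miR-21-5p had the largest mean difference on the log2(value + 500) scale, which understates changes of low miRNAs such as miR-221-3p and let-7d-5p. At day 3 the mean scaled count of miR-221-3p was 2557 in IRI and 314 in sham rats, a wider ratio than that of miR-21-5p. At day 1 its means were 1296 in IRI and 689 in sham rats, a narrower ratio than that of miR-21-5p. Groups that did not overlap on at least 3 days, with IRI higher, were found for 3.57%, namely miR-21-5p and miR-16-5p. These counts describe the tables and carry no test of their own.

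**Figure D4:**
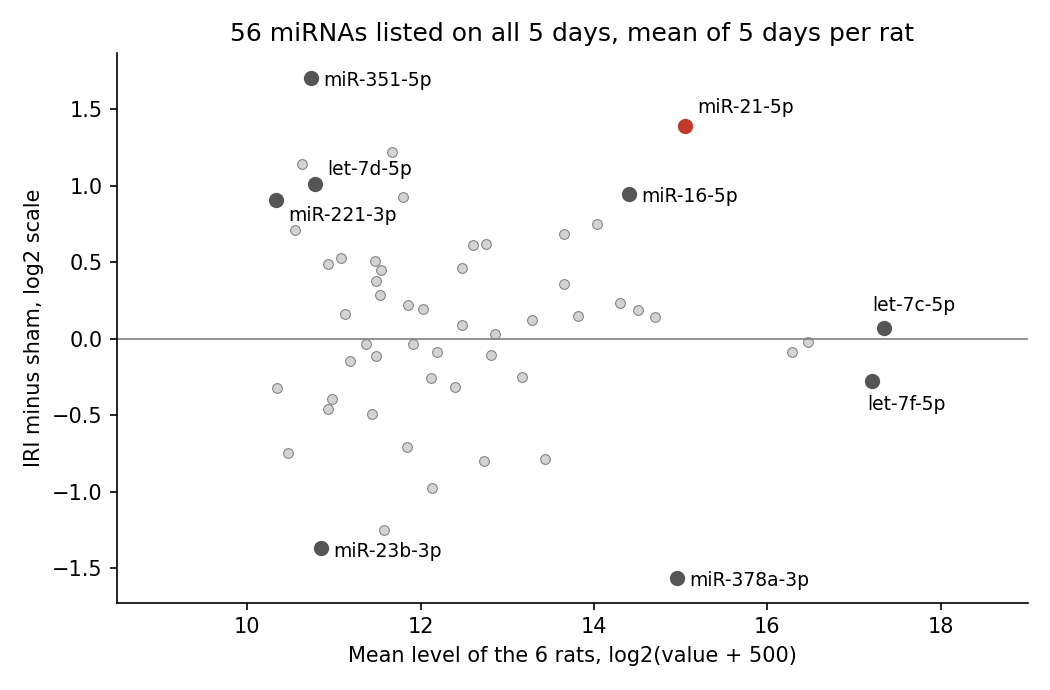
Mean level of the 6 rats (x axis, log2(value + 500)) against IRI minus sham difference (y axis, log2 scale) for the 56 miRNAs listed on all 5 days, each a mean over days per rat. miR-21-5p combines a high level with a difference of 1.39, while let-7a-5p, let-7b-5p, let-7c-5p and let-7f-5p, at still higher levels, lie between -0.27 and 0.07.

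Whether the difference changed over time was asked in 1 fit over all 30 libraries. The group by day test of miR-21-5p gave F = 0.396 (limma adjusted p = 0.925), while 3.57% of the 56 miRNAs passed. The mean difference of days 1 and 2, the injury state, less that of days 7 and 14, the recovery state, was -0.19 (SE 0.59, 95% interval -1.42 to 1.03, limma adjusted p = 0.821). The larger point value at day 3 was therefore not told apart from the other days. With the rat as a block, which takes in that the same rats were sampled on each day, the interval of this difference was -1.11 to 0.72.

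Sequencing lanes were divided unevenly between the groups. Lanes 2 and 5 held 9 and 3 IRI libraries and 0 sham libraries each, while lane 3 held 1 IRI and 8 sham libraries and lane 4 held 2 IRI and 7 sham libraries. For the libraries of lanes 2 and 5, lane and group thus cannot be told apart. Within a lane and day, 3 comparisons of 1 IRI with 1 sham rat were left. In lane 4, IRI rat 13 had 87757 against 36522 in sham rat 9 at day 1, a ratio of 2.40, and 78447 against 59686 in the same rats at day 2, a ratio of 1.31. In lane 3, IRI rat 2 had 55083 against 9083 in sham rat 3 at day 14, a ratio of 6.06. All 3 ratios were above 1, with no replicate within a lane.

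Markers of other cell types were read beside miR-21-5p, which is also made by leukocytes. Of 6 leukocyte miRNAs, 1 was listed, miR-142-3p, at days 1, 2 and 3. It had 0 to 29 reads in IRI libraries and 0 to 2 reads in sham libraries, at most 0.365% of the reads in IRI and 0.692% in sham. Of 5 red cell miRNAs, miR-16-5p and miR-486 were listed, and miR-451-5p and miR-144 were not. Their summed share at day 1 was 2.82% to 5.24% in IRI and 1.08% to 1.51% in sham rats. It was 2.84% to 2.89% in IRI and 0.972% to 2.68% in sham rats at day 2, and 3.04% to 3.47% in IRI and 1.76% to 2.78% in sham rats at day 3. The day 7 share was 2.78% to 3.65% in IRI and 1.23% to 2.37% in sham rats. IRI thus lay above sham without overlap at days 1, 2, 3 and 7. The same held for the single shares of 8.14%, 8.33% and 10.3% of the listed miRNAs at days 2, 3 and 7. That percentage is not given here for day 1, so the day 1 gap has no background beside it. At day 14 the groups overlapped, at 1.41% to 2.304% in IRI and 1.05% to 1.69% in sham rats. At days 2 and 7 the sum held 1 listed member, miR-16-5p. The sum is nearly all miR-16-5p: miR-486, an erythroid miRNA, was listed at days 1 and 3 and had means of 186 in IRI and 932 in sham rats at day 1 (limma difference -1.08, adjusted p = 0.370) and of 99.7 in IRI and 670.0 in sham rats at day 3 (limma difference -0.83, adjusted p = 0.772). The part of red cell RNA in the miR-21-5p result was not tested.

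The nephron epithelial list, with miR-10, miR-30, miR-192, miR-194, miR-196, miR-204 and the miR-200 family, was listed in full, with 13 of 13 members on at least 1 day. Its summed share at day 2 was 14.1% to 18.5% in IRI and 8.62% to 12.5% in sham rats, which did not overlap. The single shares of 8.14% of the listed miRNAs were likewise higher in IRI without overlap on that day. At day 3 the summed share was 13.6% to 19.4% in IRI and 11.4% to 14.7% in sham rats, and at day 7 it was 10.4% to 14.9% in IRI and 8.91% to 13.74% in sham rats, with overlap on both days. The share at day 1 was 9.07% to 16.5% in IRI and 10.3% to 13.26% in sham rats. The day 14 share was 8.21% to 10.2% in IRI and 9.01% to 13.6% in sham rats. Members of this list were thus read in the urine of both groups, and the tissue they came from was not tested. At day 2 the members did not all move the same way. A difference above 0 was found for 7 of the 12 listed then, beside 45 of all 86 miRNAs. miR-192-5p was lower, with means of 5863 in IRI and 14421 in sham rats. The part of the higher summed IRI share at day 2 in the miR-21-5p result was not tested. None of 2 endothelial miRNAs and no liver miRNA was listed.

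Among 10 miRNAs known to promote kidney fibrosis, miR-21-5p was the one listed on all 5 days. miR-34a-5p, miR-199a-3p and miR-184 were listed on some days, and none of the 4 was called on any day, beside 0.909%, 1.16%, 1.39%, 2.94% and 0.0% of all miRNAs over days 1, 2, 3, 7 and 14. miR-34a-5p, a p53 target that arrests the cell cycle, had 2031, 5957 and 1199 in IRI rats 1, 2 and 13 at day 7 and was at 0 in all 3 sham rats (limma adjusted p = 0.138). At day 14 it had 1868, 2687 and 921 in IRI rats, against 0, 547 and 0 in sham rats (limma adjusted p = 0.172). IRI lay above sham on both days, at levels of few reads, as for 10.3% of all listed miRNAs at day 7 and 11.4% at day 14. At day 14 the 921 of IRI rat 13 and the 547 of sham rat 6 were each the worth of 1 read, so scaling alone set them apart. At day 7, 1 read in sham rat 3 would have been worth 3992, above the values of IRI rats 1 and 13. At day 1 miR-34a-5p had 208, 153 and 795 in IRI rats, against 0, 402 and 0 in sham rats, which overlapped.

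All 13 miRNAs of the list known to restrain kidney fibrosis, including the miR-29 and miR-200 families, were listed on at least 1 day. None was called on any day, which is near the 0.0% to 2.94% called among all miRNAs. Their median difference was 1.07, 0.55, 0.48, -0.11 and -0.03 over days 1, 2, 3, 7 and 14, beside medians of 0.30, 0.11, 0.13, -0.05 and -0.09 over all miRNAs. miR-21-5p at 1.19, 1.08, 2.03, 1.39 and 1.27 lay above the median of this list on each day, by the least at day 1. It did not lie above every member of the list. Among days 3, 7 and 14, larger differences were found for miR-200c-3p at day 3 (2.58), miR-30c-5p at day 7 (1.93) and miR-29b-3p at day 14 (1.90). Single members at days 1 and 2 are not given here, so no lead of miR-21-5p over the whole list is stated for those days.

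The exo-miRs whose 5 daily differences lay nearest to those of miR-21-5p were miR-221-3p, let-7d-5p, miR-200a-3p, miR-16-5p and miR-181a-5p. Nearness is the root mean square gap over the 5 days, which was 0.546, 0.662, 0.758, 0.803 and 0.957 log2 units for these 5, against a median of 1.54 over the 55 other miRNAs listed on all days. The sequences of those with a RefSeq entry are given, with the seed in capitals, to show that none has the miR-21-5p seed.
rno-miR-221-3p: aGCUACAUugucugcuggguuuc
rno-let-7d-5p: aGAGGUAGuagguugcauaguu
rno-miR-16-5p: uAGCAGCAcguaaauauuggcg
rno-miR-181a-5p: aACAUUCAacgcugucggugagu

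miR-221-3p, known in human cells for targeting the cell cycle inhibitor CDKN1B, differed by 0.31, 0.92, 1.40, 0.96 and 0.95 over days 1, 2, 3, 7 and 14, with a peak at day 3 as in miR-21-5p. Its sham mean at day 3 was 314, below the worth of 1 read in every sham library of that day (943 or more). That peak therefore rests on few reads. let-7d-5p, a further let-7 member, differed by 1.34, 1.27, 0.98, 0.39 and 1.08, and was highest at day 1. miR-200a-3p, which targets Zeb1 and Zeb2, differed by 0.53, 0.89, 1.499, 0.95 and -0.12, with a day 14 value at the other side of 0 from that of miR-21-5p. miR-16-5p, a cell cycle miRNA also abundant in red cells, differed by 2.03, 0.51, 0.93, 0.76 and 0.50. miR-181a-5p, a miRNA known from lymphocytes and other tissues, differed by 0.56, -0.07, 1.25, 1.58 and -0.21. None of the 5 passed the test on the mean of 5 days (limma adjusted p of 0.311, 0.183, 0.375, 0.165 and 0.585), and their levels came from the same libraries as those of miR-21-5p.

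**Figure D5:**
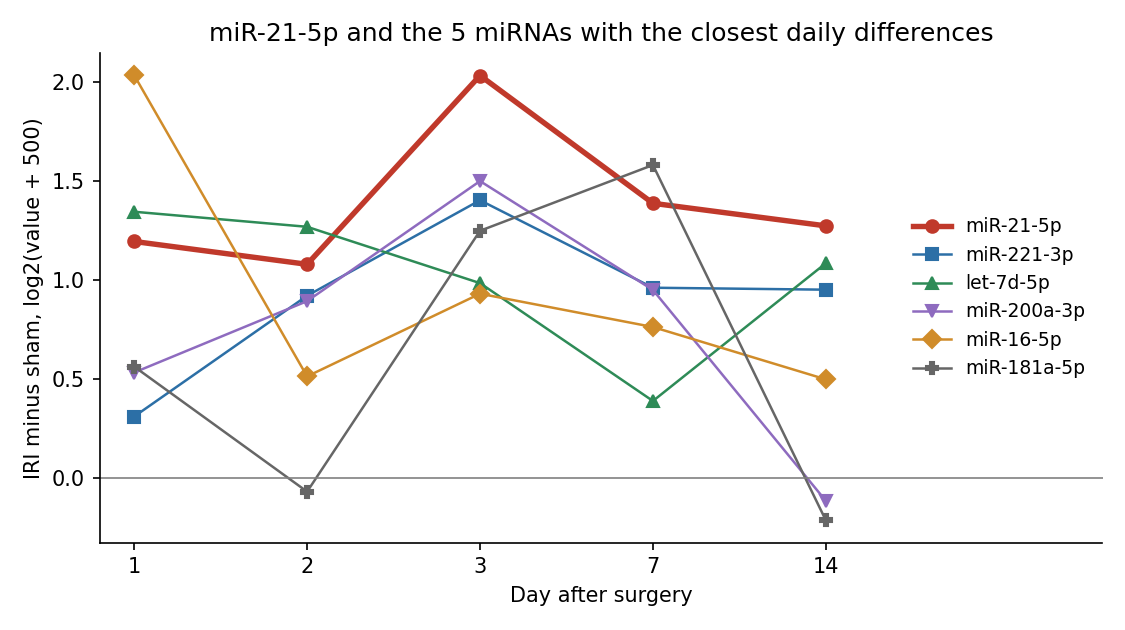
IRI minus sham difference on the log2(value + 500) scale (y axis) at days 1, 2, 3, 7 and 14 (x axis, days evenly spaced) for miR-21-5p (thick line) and the 5 miRNAs with the nearest daily differences. miR-21-5p and miR-221-3p both peak at day 3, at 2.03 and 1.40, while miR-16-5p is highest at day 1, at 2.03. The sham mean of miR-221-3p at day 3 is below the worth of 1 read.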

How the data were processed

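The authors trimmed adaptors with Cutadapt, mapped with Bowtie through miRDeep2's mapper (CAP-miRseq) to the rat genome (version 5), counted with HTSeq and compared groups with edgeR. Versions are not given in the sources used here. The deposited signal values are counts that the authors scaled separately for each day, by a method not named in the sources used here. The deposited log2 fold change, mean level, test score, p-value and FDR columns hold the authors' own comparisons and were not used. No libraries held identical values (0 pairs).

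Values were compared as log2(value + 500), which understates changes of low miRNAs, with limma 3.58.1 in R 4.3.3, with p adjusted by Benjamini-Hochberg across each table and called below 0.05. The mean of 5 days used 1 mean per rat, and the between-day test used 10 groups. Same-numbered libraries came from the same animal, and the rat was a replicate block in an alternative. Shares used two-sided exact permutation tests. Reads were the value divided by the step of each library, and intervals are Clopper-Pearson at 95%. Python 3.11.15, SciPy 1.17.1 and pandas 2.3.3 were used. The fits were run on simulated counts with a fixed spread between rats, to check direction and false calls. The wider spreads seen in some groups here were not simulated, so this says nothing of power. Sequences were matched by name to RefSeq (GRCr8), for 109 of 122 miRNAs.

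Named miRNAs are miR-21-5p, those above it by group mean in either group, the 5 with the nearest daily differences, and members of the lists (fibrosis, leukocyte, red cell, nephron epithelium, endothelium, liver, muscle). Of 5 muscle miRNAs, 2 were listed on some day. The members and lists were chosen with earlier results of these data known. Alternatives tried were added constants (50, 2000 or 0.5 read), keeping only miRNAs above 0 in every library, equal totals, recentring on the median, an intensity trend, a threshold of 0.01, other totals for the share, and leaving out each rat.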

Additional observations from a re-analysis of the deposited data

How the results depend on the processing

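All 78 IRI minus sham values of miR-21-5p under the alternatives were above 0, and 148 of the 154 values computed kept both direction and side of the threshold. miR-21-5p passed an adjusted p of 0.05 at day 3 (2.03) and for the mean of 5 days (1.39) when miRNAs with a 0 in any library were left out, with adjusted p of 0.0252 and 0.00435 (limma). That setting tests fewer miRNAs, and for the mean of 5 days its unadjusted p was also lower, at 0.000458 against 0.00996 (limma). miR-21-5p also passed with an intensity trend at day 3 (2.03, adjusted p = 0.0120), at day 14 (1.27, adjusted p = 0.0357) and for the mean of 5 days (1.39, adjusted p = 0.0410), where the cause was not tested. Leaving out each rat gave 0.77 to 1.59 at day 1, 0.63 to 1.64 at day 2, 1.46 to 2.34 at day 3, 1.135 to 1.69 at day 7, 0.73 to 1.68 at day 14 and 1.03 to 1.71 for the mean of 5 days, with adjusted p from 0.0856 upward. Injury less recovery days ran between -0.54 and 0.10, and its sign turned without sham rat 9 (0.10, limma adjusted p = 0.933). With the rat as replicate block, that difference was -0.19 (limma adjusted p = 0.772) and the between-day F was 0.732 (limma adjusted p = 0.789), and no call of miR-21-5p changed.

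The number of miRNAs called was 1, 1, 1, 2 and 0 over days 1, 2, 3, 7 and 14. It was 9 at day 1 and 3 at day 14 with a constant of 50. With 2000 it was 2 at day 2, 0 at day 3, 1 at day 7 and 2 at day 14. With 0.5 read it was 2 at day 1, 2 at day 2 and 0 at day 3. With miRNAs above 0 in every library it was 3 at day 1, 0 at day 2, 2 at day 3 and 0 at day 7. Day 1 gave 4 with equal totals and 4 recentred on the median, where day 14 gave 1. The trend gave 0 at day 1, 2 at day 2, 2 at day 3, 0 at day 7 and 4 at day 14. A threshold of 0.01 gave 0 at days 3 and 7. Leaving out each rat gave 1 to 3, 0 to 1, 0 to 1, 0 to 2 and 0 to 1 over the 5 days. Count models on whole reads (edgeR with and without TMM, DESeq2) were not run, since each library lists too few low values to check the reads. The precision is limited by 3 rats per group and by 6 sham libraries with under 15 reads of miR-21-5p.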
